A study of Mus musculus with 7 samples.

Results

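The genes described here encode the Wnt ligands, the Frizzled and LRP receptors that bind them, the secreted Dkk, Sfrp and Frzb antagonists, and the core of the intracellular cascade (Dvl, Axin, beta-catenin and the TCF/LEF factors). They were chosen by gene symbol, with earlier results of these data known. Of the probe sets annotated to 1 gene, those of the *Wnt* and *Fzd* families, the numbered *Dkk* and *Sfrp* genes, *Frzb*, *Lrp5*, *Lrp6*, *Axin1*, *Axin2*, *Ctnnb1*, *Lef1*, *Tcf7*, *Tcf7l1*, *Tcf7l2* and *Dvl1* to *Dvl3* were taken. The array holds 98 such probe sets for 49 genes. Of these, 4 were dropped because an _x in their name marks probes that can match other genes, and 39 stayed under an intensity of 50 on every array, the level under which the study's methods took a gene as not expressed. The remaining 55 probe sets, for 32 genes, are among the 22748 of the whole array that passed the same filter.

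RNA came from cultured cortical neurons of C57/Bl6J mice, taken at embryonic day 16 and grown for 16 days in vitro. In luciferase neurons (4 arrays) a lentivirus had delivered a short hairpin against luciferase, a gene that mouse cells do not have, for 2 weeks. Blank neurons (3 arrays) were naive, that is not transduced, and the study left out a further blank array at quality control. All 7 cultures are mixed cells of the embryonic cortex, so fewer cells of a type and less RNA per cell cannot be told apart in these values. The hairpin was driven by the human H1 promoter from a vector that also marks cells with green fluorescent protein, so the luciferase cells had met virus, vector and hairpin together, and these cannot be told apart. The methods describe parallel cultures on randomized plates and name no separate litters, so the p-values below cover no more than the spread between parallel cultures. Of the neuronal markers, 8 of 8 were measured, and their summed level was 44880 to 46430 in luciferase neurons and 42460 to 45820 in blank neurons.

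Wnt proteins are secreted, lipid-modified ligands that bind a Frizzled receptor together with the co-receptor Lrp5 or Lrp6. In the canonical branch, Dishevelled (Dvl) and Axin are then drawn to the membrane, the destruction complex no longer marks beta-catenin for breakdown, and beta-catenin enters the nucleus to switch on genes with TCF/LEF factors, whereas noncanonical branches act on the cytoskeleton and on calcium. The pathway is known for its control of progenitor division in the embryonic cortex, and in neurons for its part in the growth of axons and dendrites and in synapse assembly.

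Part of the Wnt pathway probe sets had small upward differences in luciferase neurons, and most did not pass the test. Of the 55 probe sets, 14 were higher and 2 were lower in luciferase neurons at an adjusted p of at most 0.05 from limma, and 39 did not pass. The 14 are 25.5% of the Wnt pathway probe sets, where 16.2% of all tested probe sets were higher, and the 2 are 3.64%, where 8.26% of all tested probe sets were lower. At the threshold of the study's methods, which also asks for a change of at least 1.5-fold, 1 probe set was higher and 0 were lower, beside 2.9% and 1.29% of all tested probe sets. The 0 lower rests on the 2 probe sets that passed the adjusted p from limma, and it was 0 under every alternative run as well. The 1 higher is *Fzd8* 1445815_at, whose blank arrays were all under 50, so that it passed the filter on level through its luciferase arrays alone. The log2 change ran from -0.35 to 0.88, with a median of 0.20 over the Wnt pathway probe sets and of 0.056 over all tested probe sets. These medians were 0.14 and 0.00078 after quantile normalization, and 0.10 and -0.040 once arrays were centred on the median. Every luciferase array lay above every blank array for 21 probe sets, or 38.2% against 22.5% of all tested probe sets, and below every blank array for 2, or 3.64% against 12.3%.

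**Figure D1:**
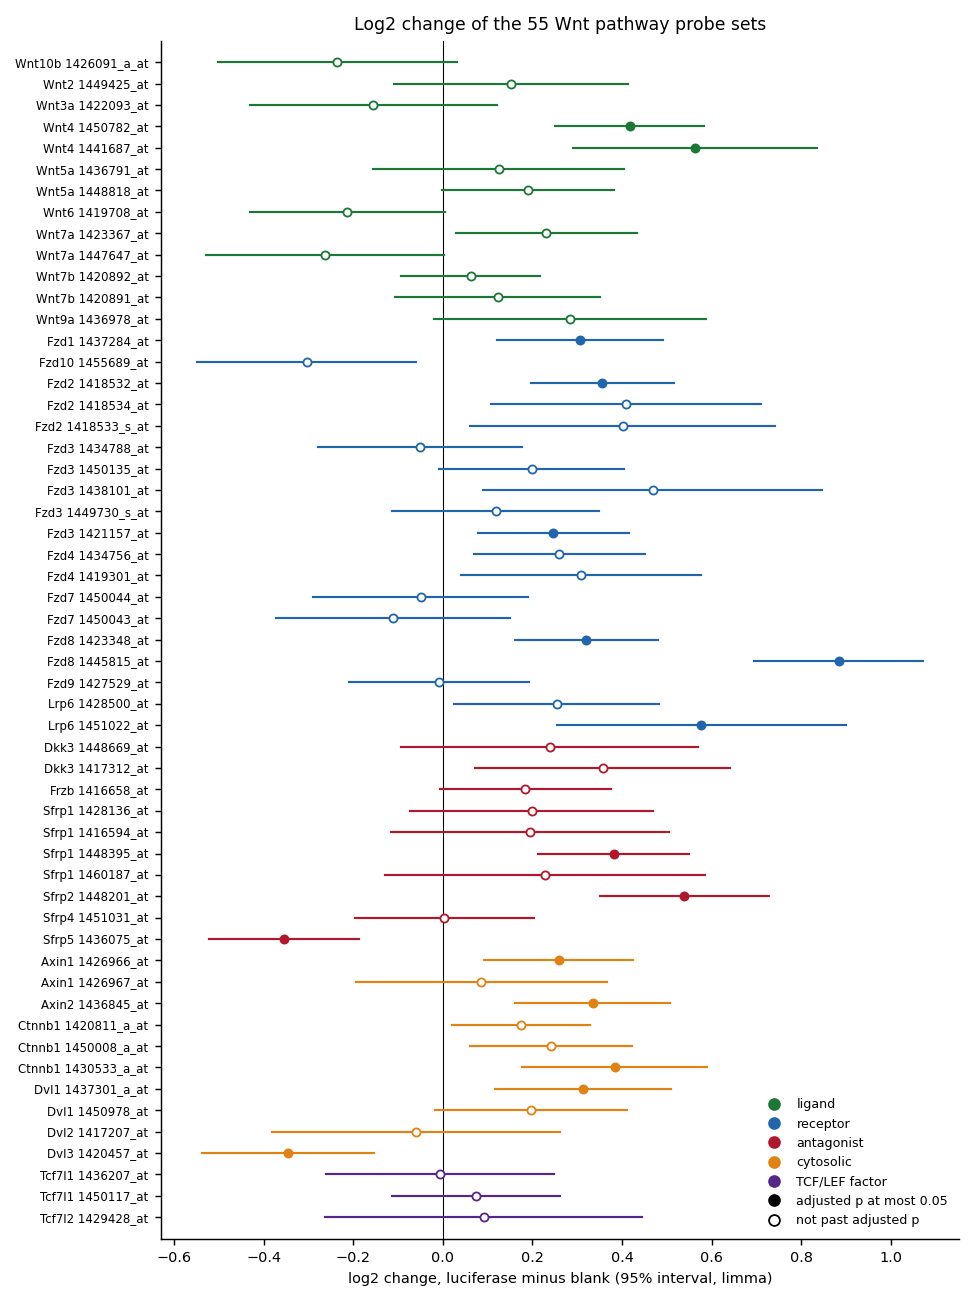
Log2 change, luciferase minus blank, of each of the 55 Wnt pathway probe sets, grouped by role and with the 95% interval from limma. Filled points passed an adjusted p of 0.05, and the 14 filled points right of 0 and the 2 left of it span 0.88 to -0.35.

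Markers of astrocytes were higher too (6 of 9 measured, or 66.7%, beside 16.9% of all genes). They are described with the other cell types after the genes, and their part in these counts was not tested.

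The counts depend on the scaling between arrays and on single arrays. With each array centred on its median, 7 were higher and 3 lower, and all tested probe sets split into 2069 higher and 3472 lower in place of 3688 higher and 1880 lower. Without blank replicate 6, 8 probe sets were higher (14.5%, beside 8.97% of all tested probe sets), without blank replicate 5 it was 9 (16.4%, beside 9.74%), and without blank replicate 7 it was 20 (36.4%, beside 21.6%), so the share over all probe sets moved the same way. Set against the mean of the blank arrays, the median over the 55 probe sets was 0.20, 0.25, 0.21 and 0.16 for luciferase replicates 1 to 4, against -0.0029, -0.0022 and 0.012 for blank replicates 5 to 7. Over all tested probe sets the corresponding medians were 0.058, 0.066, 0.040 and 0.052 for luciferase replicates and -0.011, -0.043 and 0.052 for blank replicates, so that blank replicate 7 lay among the luciferase arrays for the array as a whole. With 1 probe set per gene, the medians over the 32 genes were 0.14, 0.14, 0.15 and 0.11 for luciferase replicates and -0.0065, -0.042 and 0.040 for blank replicates. By gene the shift was thus smaller, and the blank arrays were spread about as widely as over the whole array.

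**Figure D2:**
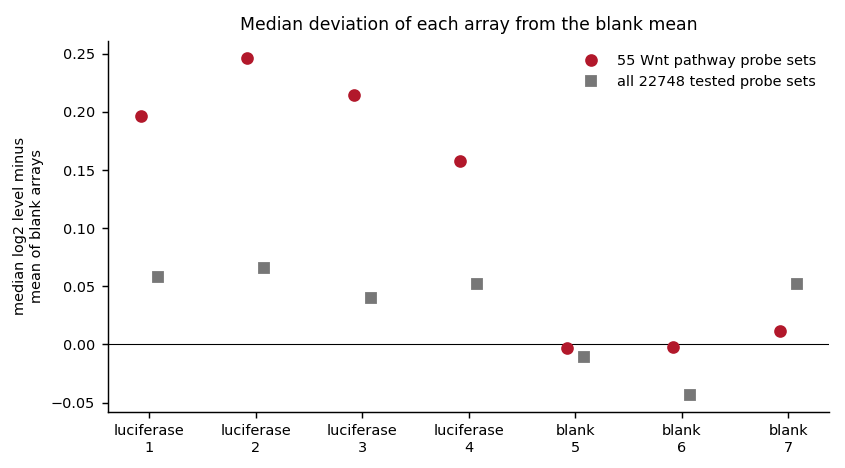
Median log2 level of each array minus the mean of the blank arrays, over the 55 Wnt pathway probe sets (circles) and over all 22748 tested probe sets (squares). The circles stand at 0.16 to 0.25 on the 4 luciferase arrays and between -0.0029 and 0.012 on the 3 blank arrays.

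The filter on level bears on the most extreme members. A probe set that reaches 50 in only 1 of the groups enters the list because of the group in which it is high. This was so for 4 probe sets, 1 each of *Wnt5a* and *Fzd8* in luciferase neurons and of *Sfrp5* and *Dvl3* in blank neurons. They include the only probe set past 1.5-fold and both of the lower ones. Of the 51 probe sets that reached 50 in both groups, 13 were higher and 0 were lower, and of the 52 with a mean of at least 50 over the 7 arrays, 13 were higher and 1 was lower. The first limit itself leaves out both lower probe sets. The shares of all tested probe sets under these limits were not counted, so these counts have no background to stand beside.

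Where a gene has several probe sets, the 1 with the highest mean over the 7 arrays stands for the gene. Counted in this way, 8 of the 32 genes were higher, 2 lower and 22 were not past the adjusted p. These are 25.0% and 6.25%, where 16.9% of all 12315 genes tested in this way were higher and 8.55% lower. At 1.5-fold or more 0 of the 32 passed in either direction, beside 2.61% of all genes higher and 1.47% lower. Every luciferase array lay above the blank arrays for 12 of the 32 genes and below them for 2, or 37.5% and 6.25%, beside 24.6% and 13.0% of all genes. The higher genes were *Wnt4* among the ligands, *Fzd1*, *Fzd2* and *Fzd8* among the receptors, *Sfrp2* among the antagonists and *Axin1*, *Axin2* and *Dvl1* in the cytosol, while *Sfrp5* and *Dvl3*, which reached 50 in blank neurons alone, were lower.

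**Figure D3:**
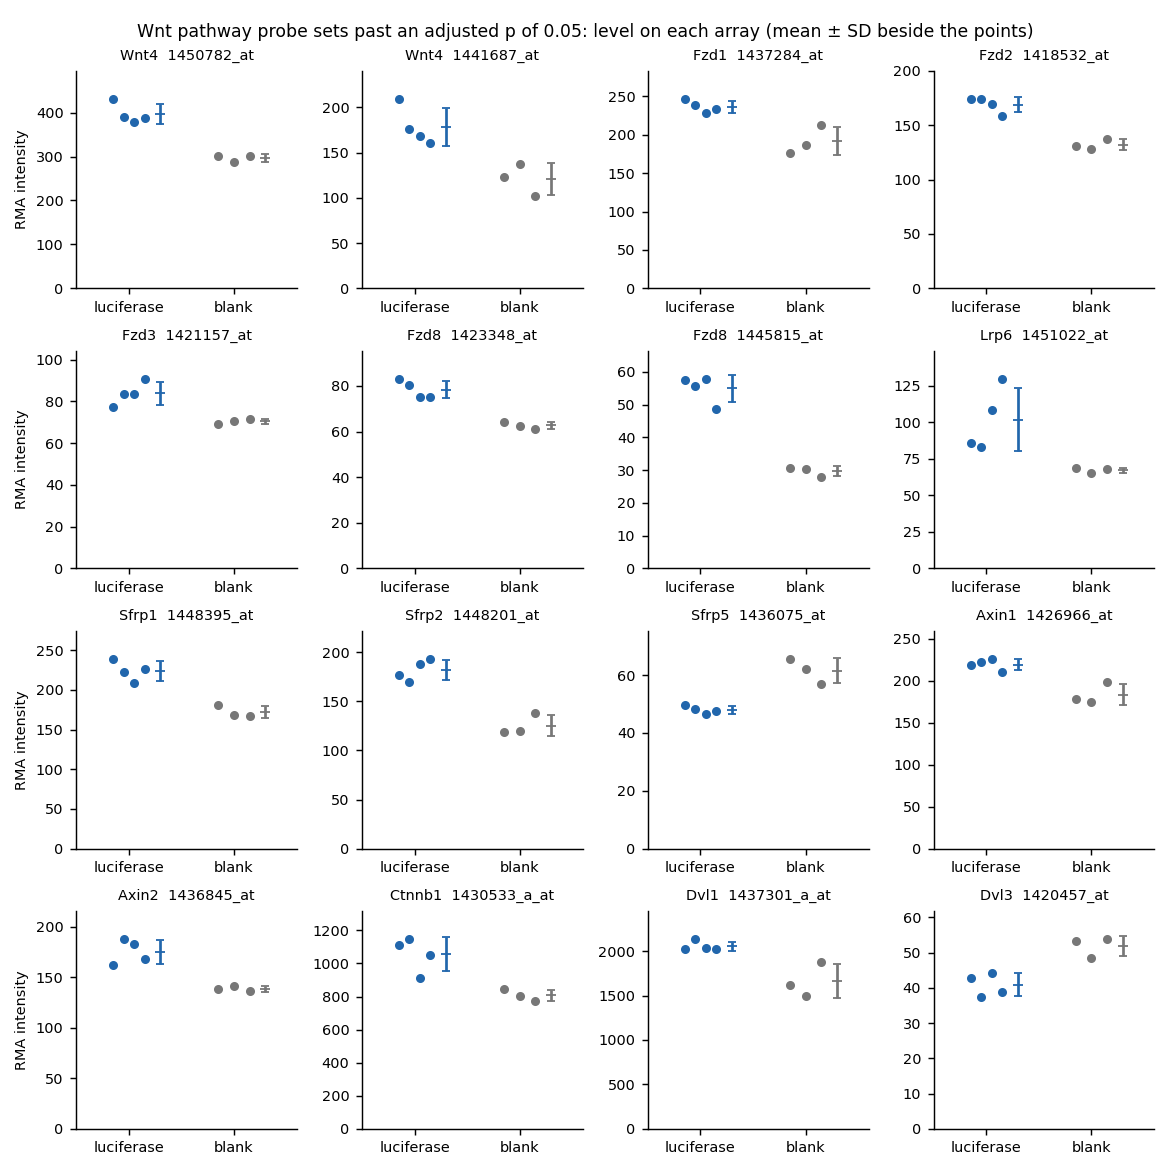
Deposited intensity (RMA, linear scale) of the 16 Wnt pathway probe sets past an adjusted p of 0.05, 1 point per array, with the mean and SD beside the points. In 14 panels every luciferase array lies above every blank array, and in the panels of *Sfrp5* and *Dvl3* every luciferase array lies below.

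Among the ligands, *Wnt4* rose in luciferase neurons, and 0 of the other 8 measured ligand genes passed the limma test in either direction. Of the 9 ligand genes 11.1% were thus higher and 0 lower, beside 16.9% and 8.55% of all genes. At an unadjusted p under 0.05, 2 of the 9 were higher, *Wnt4* and *Wnt7a*, and 0 were lower, beside 25.7% and 14.0% of all genes. *Wnt4* (chromosome 4) encodes a ligand known from kidney and female gonad development. Its probe set 1450782_at had intensities of 431, 391, 378 and 389 in luciferase neurons, against 302, 287 and 302 in blank neurons. The groups did not overlap, and the lowest luciferase array stood well above the highest blank array. The means were 397 ± 23.4 over the luciferase arrays (SD, n = 4) and 297 ± 8.98 over the blank arrays (SD, n = 3), with a log2 change of 0.42 (SE 0.074, limma adjusted p = 0.0053). The other probe set, 1441687_at, read 209, 176, 168 and 161 in luciferase neurons, against 124, 137 and 102 in blank neurons. These groups were also separate, with a log2 change of 0.56 (SE 0.12, limma adjusted p = 0.011). Both *Wnt4* probe sets passed under all alternatives run.

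The other ligands had log2 changes from -0.26 to 0.28, none of them past the test. The largest on a representative probe set were those of *Wnt9a*, which acts in joint formation, and *Wnt10b*, which acts in bone and fat tissue. *Wnt9a* read 204, 239.8, 274 and 204 in luciferase neurons, against 171, 170.4 and 226 in blank neurons, and blank replicate 7 lay inside the luciferase range (log2 change 0.28, 95% interval -0.019 to 0.59). Without blank replicate 7, *Wnt9a* passed (log2 change 0.42, adjusted p = 0.036 from limma). *Wnt10b* read 38.9, 44.3, 52.3 and 42.7 in luciferase neurons, against 48.4, 48.2 and 60.6 in blank neurons, values close to the level taken as not expressed (log2 change -0.24, 95% interval -0.50 to 0.032).

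*Wnt7a* and *Wnt7b*, known in neurons for their part in presynaptic assembly and dendrite growth, are named here after their values were seen. The *Wnt7a* probe sets went opposite ways. Probe set 1423367_at read 286, 326, 287 and 267 in luciferase neurons, against 254, 264 and 227 in blank neurons, with every luciferase array above the blank arrays (log2 change 0.23, adjusted p = 0.09 from limma), whereas 1447647_at read 83.2, 89.6, 85.5 and 79.0 in luciferase neurons, against 109, 116 and 81.6 in blank neurons (log2 change -0.26, adjusted p = 0.13 from limma). Without blank replicate 7 the second of these passed as lower (adjusted p = 0.0071 from limma), so the data give no single direction for *Wnt7a*. *Wnt7b* differed little, with 1012, 1008, 983 and 1029 in luciferase neurons, against 1013, 968 and 918 in blank neurons on probe set 1420892_at and a log2 change of 0.062 (95% interval -0.093 to 0.22). The remaining ligands, *Wnt2*, *Wnt3a*, *Wnt5a* and *Wnt6*, had mean intensities between 47.2 and 66.5 in either group. A further 9 *Wnt* genes, among them *Wnt1*, *Wnt10a* and *Wnt11*, stayed under 50 on every array, and *Wnt3* has only an _x probe set.

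Of the 9 receptor genes, *Fzd1*, *Fzd2* and *Fzd8* were higher on their representative probe set, and on the level of probe sets 6 of 19 were higher and 0 were lower. This is 31.6%, beside the 16.2% of all tested probe sets given above. At an unadjusted p under 0.05 from limma, 12 were higher and 1 was lower (63.2% and 5.26%), beside 24.9% and 14.0% of all tested probe sets.

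*Fzd8* encodes a Frizzled receptor of the forebrain whose Wnt-binding domain was the first to be crystallised with a Wnt. Its representative probe set, 1423348_at, read 83.0, 80.3, 75.2 and 75.2 in luciferase neurons, against 64.4, 62.5 and 61.3 in blank neurons. Every luciferase array was above the blank arrays, with a log2 change of 0.32 (SE 0.071, limma adjusted p = 0.013), though the adjusted p was 0.052 with arrays centred on the median. Probe set 1445815_at read 57.5, 55.8, 57.8 and 48.8 in luciferase neurons, against 30.8, 30.5 and 28.0 in blank neurons. All blank arrays and luciferase replicate 4 were dimmer than 50, so this probe set entered the test only through luciferase arrays, and its log2 change of 0.88 is given as a description. The change was 0.49 with 32 added to each value, and filters that ask for 100 on 1 array or for 50 on all arrays of a group leave the probe set out.

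*Fzd2*, a receptor for noncanonical ligands such as *Wnt5a*, rose on its representative probe set 1418532_at, which read 174, 174, 169.5 and 159 in luciferase neurons, against 131, 128 and 137 in blank neurons. The groups did not overlap, the change was larger than the spread within either group, with a log2 change of 0.36 (SE 0.071, limma adjusted p = 0.0084), and it passed under all alternatives run. The other *Fzd2* probe sets, 1418534_at and 1418533_s_at, had changes of similar size with more spread. Their log2 changes were 0.41 and 0.40, with adjusted p of 0.052 and 0.082 from limma. The first passed in 6 of 16 alternatives and the second in 2 of 16. On the second of these, blank replicate 7 read 88.7 and lay within the luciferase range of 80.0 to 108.

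*Fzd1* rose by a smaller step. It read 247, 238, 229 and 233 in luciferase neurons, against 176, 187 and 213 in blank neurons, and blank replicate 7 came closest to the luciferase arrays, with a log2 change of 0.31 (SE 0.083, limma adjusted p = 0.027). It did not pass in 8 of 17 alternatives: without luciferase replicate 1, 2 or 4, without blank replicate 5 or 6 (adjusted p up to 0.1), when dim probe sets were kept, after quantile normalization and with arrays centred on the median.

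*Lrp6*, the co-receptor that hands the signal to Axin, was higher on 1 of its probe sets. Probe set 1451022_at read 86.2, 83.3, 109 and 129.6 in luciferase neurons, against 68.5, 65.5 and 67.8 in blank neurons, and luciferase replicates 3 and 4 were the highest, with a log2 change of 0.58 (SE 0.14, limma adjusted p = 0.02). The adjusted p was 0.055 without luciferase replicate 3, 0.051 without blank replicate 5 and 0.064 without blank replicate 6. The representative probe set 1428500_at read 218, 237, 253 and 238 in luciferase neurons, against 192, 175 and 231 in blank neurons, with blank replicate 7 among the luciferase values, and did not pass, with a log2 change of 0.25 (SE 0.10, limma adjusted p = 0.096). It did in 3 of 17 alternatives: without blank replicate 7 (adjusted p = 0.014), with array weights (0.0078) and by gene mean (0.013).

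*Fzd3*, a receptor known for axon guidance in the forebrain, had the most probe sets of any member, and they did not all move the same way. The representative 1434788_at read 1585, 1480.0, 1536 and 1969 in luciferase neurons, against 1715, 1671 and 1684 in blank neurons, and luciferase replicate 4 stood far above the other luciferase arrays (log2 change -0.050, 95% interval -0.28 to 0.18). The other 4 had positive log2 changes from 0.12 to 0.47, of which 1421157_at passed. It read 77.4, 83.8, 83.7 and 90.6 in luciferase neurons, against 69.4, 70.6 and 71.8 in blank neurons, with a log2 change of 0.25 (SE 0.075, limma adjusted p = 0.04). That call was lost in 9 of 15 alternatives. These were no filter on level, trend and robust in eBayes, 32 added to each value, leaving out luciferase replicate 2, 3 or 4 or blank replicate 5 or 6, and centring on the median, where the adjusted p was highest (0.16, log2 change 0.15).

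The receptors that did not pass include *Fzd10* and *Fzd4*, which had the largest changes among them. *Fzd10* read 49.5, 57.2, 53.0 and 50.02 in luciferase neurons, against 71.1, 70.2 and 54.1 in blank neurons, and luciferase replicate 2 lay above blank replicate 7 (log2 change -0.30, adjusted p = 0.068 from limma). It passed as lower in 4 of 16 alternatives, among them without blank replicate 7 (adjusted p = 0.0074 from limma) and with arrays centred on the median (adjusted p = 0.044). *Fzd4*, the receptor for Norrin in retinal vessels, read 74.9, 79.6, 82.8 and 92.2 in luciferase neurons, against 70.5, 69.6 and 65.8 in blank neurons on 1434756_at. These groups were separate, yet the adjusted p was 0.052 from limma (log2 change 0.26), and it passed in 5 of 16 alternatives, with adjusted p from 0.019 to 0.049. *Fzd7* and *Fzd9* had log2 changes from -0.11 to -0.0088 with overlapping groups, and *Fzd5*, *Fzd6* and *Lrp5* stayed under 50 on every array.

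Among the 6 secreted antagonists, *Sfrp2* rose in luciferase neurons. *Sfrp5* was lower but reached 50 in blank neurons alone, and the other 4 genes did not pass on their representative probe set. The 1 higher and the 1 lower gene are 16.7% each, beside 16.9% and 8.55% of all genes. At an unadjusted p under 0.05 from limma the shares were also 16.7% each, beside 25.7% and 14.0% of all genes. Sfrp proteins resemble the Wnt-binding domain of Frizzled and hold Wnts away from the receptor.

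*Sfrp2* (chromosome 3) had the largest change of any member gene on a representative probe set. It read 177, 169.8, 188 and 193 in luciferase neurons, against 118, 120.2 and 138 in blank neurons. Even the lowest luciferase array stood above all blank arrays, of which replicate 7 was the highest. The means were 182 ± 10.6 over the luciferase arrays (SD, n = 4) and 125 ± 10.7 over the blank arrays (SD, n = 3), with a log2 change of 0.54 (SE 0.084, limma adjusted p = 0.0031), and the call held under all alternatives run. *Sfrp5* (chromosome 19) read 49.6, 48.4, 46.5 and 47.6 in luciferase neurons, against 65.4, 62.0 and 56.9 in blank neurons, so that every luciferase array lay below the blank arrays and just under 50. It entered the test only through blank arrays, so its log2 change of -0.35 is given as a description, and the filter that asks for 100 on 1 array removes it.

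*Sfrp1* was higher on 1 of its 4 probe sets, 1448395_at, which read 238, 222, 209 and 226 in luciferase neurons, against 180.4, 168 and 167 in blank neurons. The groups were separate and the call held under all alternatives run, with a log2 change of 0.38 (SE 0.075, limma adjusted p = 0.0079). Its representative probe set 1428136_at read 456, 459.9, 457 and 368 in luciferase neurons, against 335, 357 and 450.4 in blank neurons, where blank replicate 7 was near the upper luciferase values and luciferase replicate 4 near the lower blank ones, with a log2 change of 0.20 (SE 0.12, limma adjusted p = 0.26). It passed in 3 of 17 alternatives: without blank replicate 7 (adjusted p = 0.048), with array weights (0.012) and by gene mean (0.042). All 4 had positive log2 changes between 0.19 and 0.38. *Dkk3*, a divergent member of the Dkk family, and *Frzb* were the largest of the rest on a representative probe set. *Dkk3* had a log2 change of 0.24 on 1448669_at and 0.36 on 1417312_at, with adjusted p of 0.26 and 0.067 from limma. The first of these passed without blank replicate 7 (adjusted p = 0.043) and the second without luciferase replicate 4 (adjusted p = 0.018), and both with array weights. *Frzb* read 158, 176, 146 and 147 in luciferase neurons, against 143, 134 and 135 in blank neurons, with separate groups but a small step (log2 change 0.18, adjusted p = 0.14 from limma). *Sfrp4* had a log2 change of 0.0036 that changed sign with the scaling (-0.040 with quantile normalization), and *Dkk1*, *Dkk2* and *Dkk4* stayed under 50 on every array.

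In the cytosol, *Axin2*, *Axin1* and *Dvl1* were higher. *Axin2* (chromosome 11) encodes a scaffold of the destruction complex and is a standard target of the canonical branch, which it feeds back on. Its member probe set 1436845_at read 161, 187, 183 and 168 in luciferase neurons, against 138, 141 and 136 in blank neurons. All luciferase arrays exceeded all blank arrays, and the blank arrays agreed closely with each other. This is a log2 change of 0.33 (SE 0.077, limma adjusted p = 0.015). With arrays centred on the median the adjusted p was 0.059, and the call held under the other 16 alternatives. A further *Axin2* probe set, 1421341_at, stayed under 50 on every array and is no member. It showed no rise, with 30.8, 26.8, 22.5 and 21.0 in luciferase neurons, against 26.4, 26.1 and 27.4 in blank neurons.

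*Axin1*, the constitutive scaffold, read 218, 222, 225 and 211 in luciferase neurons, against 178, 175 and 198 in blank neurons on 1426966_at, with a log2 change of 0.26 (SE 0.074, limma adjusted p = 0.033). The groups were separate, but the call was lost in 10 of 17 alternatives. These include leaving out any 1 of the luciferase replicates and leaving out blank replicate 5 or 6, with adjusted p from 0.051 to 0.11. On its other probe set, 1426967_at, the groups overlapped (log2 change 0.086, 95% interval -0.19 to 0.37), and the change was -0.010 with arrays centred on the median.

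Dishevelled proteins relay the signal from Frizzled, and all 3 genes were measured. *Dvl1* (chromosome 4) read 2028, 2132, 2039 and 2028 in luciferase neurons, against 1619, 1494 and 1877 in blank neurons on 1437301_a_at. Every luciferase array lay above the blank arrays, which were themselves spread widely, with a log2 change of 0.31 (SE 0.087, limma adjusted p = 0.03). This call was lost in 8 of 17 alternatives: with no filter on level, with arrays centred on the median, without any 1 of the luciferase replicates and without blank replicate 5 or 6, with adjusted p from 0.055 to 0.1. *Dvl3* (chromosome 16) read 42.8, 37.4, 44.3 and 38.9 in luciferase neurons, against 53.2, 48.5 and 53.8 in blank neurons. Here every luciferase array was under 50 and under the blank arrays, and only blank replicates 5 and 7 reached 50. It entered the test through these alone, so its log2 change of -0.35 is given as a description. *Dvl2* overlapped between the groups (log2 change -0.059, 95% interval -0.38 to 0.26).

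Beta-catenin, encoded by *Ctnnb1*, also joins cadherins to the cytoskeleton, so its RNA is not specific to Wnt signaling. Its representative probe set 1420811_a_at read 9596, 9019, 9279 and 9038 in luciferase neurons, against 8154, 8506 and 7873 in blank neurons. The groups did not overlap, but the change was small, with a log2 change of 0.18 (SE 0.069, limma adjusted p = 0.091). The other probe sets, 1450008_a_at and 1430533_a_at, had log2 changes of 0.24 and 0.38, and the luciferase arrays were above the blank arrays on both. Of these 1430533_a_at passed (adjusted p = 0.017 from limma), though no longer without blank replicate 6 (adjusted p = 0.05) or with arrays centred on the median (adjusted p = 0.051), and 1450008_a_at did not (adjusted p = 0.055 from limma), though it passed in 6 of 16 alternatives and the representative probe set in 3 of 17.

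Of the nuclear factors, *Tcf7l1*, known mainly as a repressor, and *Tcf7l2* were measured. *Tcf7l2* read 89.7, 74.3, 73.6 and 62.6 in luciferase neurons, against 64.4, 58.9 and 89.9 in blank neurons, and both the highest and the lowest of the 7 values came from a blank array (log2 change 0.092, 95% interval -0.26 to 0.45). *Tcf7l1* had log2 changes of -0.0056 and 0.075 on its probe sets, each of which changed sign under other settings. Of the 2 factor genes 0 passed the limma test, also at an unadjusted p under 0.05. *Lef1* stayed under 50 on every array, and *Tcf7* is not analysed here because no probe set is annotated to it alone.

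The promoters of the members were read from RefSeq (GRCm38.p6), from 250 bases before to 50 after the start of the gene. Of the 32 genes, 22 matched the table, with 24 promoters. The promoters shown are those of *Sfrp2*, *Wnt4* and *Axin2*, the genes with an entry that had the largest rises on a representative probe set, and of *Dvl1*, chosen after its motif was seen. All are on the plus strand and written 5′ to 3′, and capitals mark a motif match.
*Sfrp2*, chr3:83766071-83766370: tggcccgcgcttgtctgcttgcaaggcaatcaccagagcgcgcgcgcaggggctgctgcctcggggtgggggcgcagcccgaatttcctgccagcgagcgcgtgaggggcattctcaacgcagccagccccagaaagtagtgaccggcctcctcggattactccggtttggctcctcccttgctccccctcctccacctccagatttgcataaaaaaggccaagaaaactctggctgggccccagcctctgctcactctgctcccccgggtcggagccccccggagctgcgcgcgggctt
*Wnt4*, chr4:137277385-137277684: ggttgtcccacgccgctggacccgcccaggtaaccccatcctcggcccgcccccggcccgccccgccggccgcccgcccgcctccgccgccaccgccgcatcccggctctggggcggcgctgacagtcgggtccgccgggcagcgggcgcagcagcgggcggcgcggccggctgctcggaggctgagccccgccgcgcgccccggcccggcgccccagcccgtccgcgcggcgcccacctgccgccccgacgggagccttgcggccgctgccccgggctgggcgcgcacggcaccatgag
*Axin2*, chr11:108920099-108920398: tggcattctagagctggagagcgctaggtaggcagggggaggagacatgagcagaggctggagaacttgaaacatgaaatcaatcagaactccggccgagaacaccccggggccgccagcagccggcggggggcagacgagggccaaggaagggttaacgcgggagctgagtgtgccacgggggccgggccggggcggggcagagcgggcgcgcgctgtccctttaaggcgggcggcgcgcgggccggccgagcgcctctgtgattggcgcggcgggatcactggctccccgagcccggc
*Dvl1*, chr4:155847152-155847451: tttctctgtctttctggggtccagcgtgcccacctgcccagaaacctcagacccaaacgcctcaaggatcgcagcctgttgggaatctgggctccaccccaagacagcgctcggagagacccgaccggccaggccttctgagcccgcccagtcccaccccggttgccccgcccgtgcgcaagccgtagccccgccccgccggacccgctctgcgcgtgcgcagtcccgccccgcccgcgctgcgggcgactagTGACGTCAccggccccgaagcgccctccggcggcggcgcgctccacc
The motifs searched, on both strands, were the TCF/LEF motif (CTTTGAA or CTTTGAT), the core of the cAMP response element, CRE (TGACGT), and the AP-1 motif (TGANTCA). The TCF/LEF motif was in 0 of the 24 promoters, and in 8.65% of all 32851 promoters of this length. The CRE core was in 2, those of *Dvl1* and *Tcf7l2*, and in 7.51% of all promoters. In *Dvl1* it is read on both strands at overlapping positions, from 4 to 11 bases after the start. The AP-1 motif was in 1, that of *Dvl2*, and in 7.81% of all. The windows shown are rich in GC, with 66.0% for *Sfrp2*, 84.3% for *Wnt4*, 70.0% for *Axin2* and 72.3% for *Dvl1*, where the median of all promoters is 52.7%. The shares of all promoters were not matched for GC, and only these short windows were searched. The 0 for the TCF/LEF motif therefore does not mean that these genes lack such sites.

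The rest of the pathway was followed with 7 lists of 85 genes that are not among the members. Of these 85, 69 were measured, and 15 were higher, 2 lower and 52 not past the test. This is 21.7% higher and 2.9% lower, beside 16.9% and 8.55% of all genes, with a median log2 change of 0.097 beside 0.058 over all genes.

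Of the 7 lists, regulators outside the cell and at the membrane held the largest share, with 5 of 11 measured genes higher and 0 lower. The 5 are 45.5%, beside 16.9% of all genes. *Igfbp4*, which binds insulin-like growth factors and has been described as a Wnt antagonist, read 1316, 1829, 1750.4 and 1662 in luciferase neurons, against 967, 945 and 1123 in blank neurons. *Gpc4*, a glypican that astrocytes release and that recruits glutamate receptors to synapses, read 1253, 1399.9, 1328 and 1189 in luciferase neurons, against 905, 925 and 962 in blank neurons. Both were separate between the groups, with a log2 change of 0.69 (SE 0.12, limma adjusted p = 0.0048) for *Igfbp4* and a log2 change of 0.47 (SE 0.079, limma adjusted p = 0.0041) for *Gpc4*. *Lrp4*, the agrin receptor, *Gpc3*, another glypican, and *Ndp*, which encodes Norrin, also rose, with log2 changes of 0.48, 0.36 and 0.36. This list counted 3 higher genes with quantile normalization, with arrays centred on the median, and without luciferase replicate 1, 3 or 4 or blank replicate 5. *Lrp4* and *Ndp* each lost the call in 7 of 17 alternatives. Of the 6 measured genes of the R-spondin axis, whose proteins set how many Frizzled receptors stay on the membrane, 0 passed the limma test and 3 were higher at an unadjusted p under 0.05, where 25.7% of all genes were. With array weights 3 of the 6 passed, and 2 did without luciferase replicate 2 and 1 without blank replicate 7. Of the 2 measured genes of Wnt secretion 0 passed, also without adjustment.

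Of the noncanonical receptors and planar polarity genes, 3 of 11 were higher (27.3%, beside 16.9% of all genes) and 0 lower (beside 8.55%). *Celsr3*, a large cadherin that guides forebrain axons together with Fzd3, read 232, 287, 269.6 and 304 in luciferase neurons, against 172, 189 and 206 in blank neurons and did not overlap, for a log2 change of 0.53 (SE 0.11, limma adjusted p = 0.0085). *Prickle2* and the Wnt receptor gene *Ryk* had log2 changes of 0.41 and 0.25. *Ryk* lost the call in 9 of 17 alternatives and *Prickle2* in 2. Only 1 gene of this list was higher without blank replicate 5 or without blank replicate 6.

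Of the 20 genes of the destruction complex and its regulators, which include *Apc*, *Gsk3b* and the casein kinases, 2 were higher and 1 was lower. Both shares are smaller than those of all genes, of which 16.9% were higher and 8.55% lower. *Nkd2*, which binds Dishevelled, and *Frat2*, which binds Gsk3, had log2 changes of 0.32 and 0.30, and *Csnk1g1*, a kinase that acts on Lrp6, of -0.36. Of these 20 genes, 0 were higher with quantile normalization, with arrays centred on the median, with no filter on level, or without luciferase replicate 2 or 3 or without blank replicate 5 or 6, 1 was higher without luciferase replicate 1, and 0 were lower without luciferase replicate 2 or 4 or without blank replicate 5.

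Among the nuclear partners of beta-catenin 3 of 12 were higher (25.0%, beside 16.9% of all genes) and 0 lower (beside 8.55%). *Tle1*, a Groucho corepressor, read 494, 415, 482 and 524 in luciferase neurons, against 276, 285 and 307 in blank neurons. The luciferase arrays stood clear of the blank arrays, with a log2 change of 0.72 (SE 0.092, limma adjusted p = 0.0013), and the call held under all alternatives run. *Chd8*, a chromatin remodeller, and *Ctnnbip1*, which blocks the binding of beta-catenin to TCF factors, had log2 changes of 0.34 and 0.27. *Ctnnbip1* lost the call in 7 of 17 alternatives and *Chd8* in 3. The other Groucho genes did not pass, with log2 changes of -0.080 for *Tle2*, -0.19 for *Tle3* and 0.25 for *Tle4*. The list counted 1 higher gene with arrays centred on the median, 5 without blank replicate 7, and 6 with array weights or by gene mean.

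Of the textbook targets of the pathway, 3 of 11 measured genes were higher and 1 was lower. These are 27.3% and 9.09%, beside 16.9% and 8.55% of all genes. *Axin2* is described above. *Cd44*, a hyaluronan receptor, read 653, 588, 582 and 814 in luciferase neurons, against 364, 358 and 517 in blank neurons, with a log2 change of 0.68 (SE 0.16, limma adjusted p = 0.014), and *Ccnd1*, which encodes cyclin D1, had a log2 change of 0.26. *Tnfrsf19*, a receptor of the TNF family, read 639.5, 609, 577 and 513 in luciferase neurons, against 782, 817 and 851 in blank neurons. It fell, and the groups were separate, for a log2 change of -0.49 (SE 0.089, limma adjusted p = 0.0059). *Ccnd1* lost the call in 8 of 17 alternatives, and *Cd44* in 2, without blank replicate 5 (adjusted p = 0.052) or 6 (adjusted p = 0.056). With arrays centred on the median, and without blank replicate 5 or blank replicate 6, 1 target was higher. The list therefore held members past the test in both directions, and *Lef1* and *Dkk1*, also textbook targets, were under 50 on every array.

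**Figure D4:**
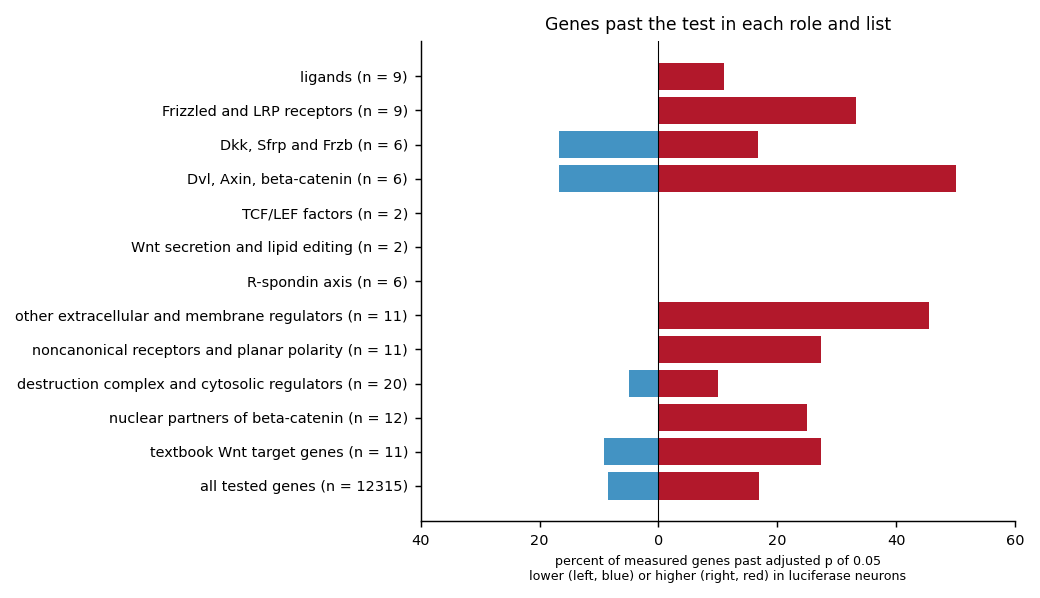
Share of measured genes past an adjusted p of 0.05 in each role and list, with the number measured, lower to the left (blue) and higher to the right (red) in luciferase neurons. The cytosolic members (3 of 6 genes) and other extracellular and membrane regulators (45.5%) reached furthest to the right, and all 12315 tested genes stand at 16.9% higher and 8.55% lower.

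Markers of other cell types moved as well. Of 9 measured astrocyte markers 6 were higher (66.7%, beside 16.9% of all genes) and 0 lower, with a median log2 change of 0.51, and *Gjb6* was under 50. Their summed level was 23710 to 26020 in luciferase neurons and 17520 to 19630 in blank neurons. *Gfap*, the filament protein of astrocytes, read 997, 900.4, 928 and 1099.6 in luciferase neurons, against 345, 473 and 486 in blank neurons, with a log2 change of 1.19 (SE 0.13, limma adjusted p = 0.0006). Of 7 measured markers of neural progenitors and dividing cells 3 were higher (42.9%, beside 16.9% of all genes) and 0 lower. Their sums were 5085 to 5610 in luciferase neurons and 4187 to 4460 in blank neurons. *Hes5*, *Pax6* and *Vim* were the higher ones, *Sox2* did not pass, and *Eomes* was under 50. The dividing-cell markers *Mki67* and *Top2a* and the progenitor marker *Nes* overlapped between the groups and did not pass (adjusted p of 0.21, 0.44 and 0.96 from limma). *Vim* (means of 2579 in luciferase and 2027 in blank neurons) and *Sox2* (1495 and 1214) make up most of the sums. These shifts run alongside those of *Sfrp2*, *Wnt4*, *Fzd2*, *Axin2* and *Gpc4*, and their part in the results was not tested.

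The marker list of vascular and meningeal cells moved the other way in total, with sums of 562 to 764 in luciferase neurons and 978 to 1124 in blank neurons. *Dcn*, a proteoglycan gene of meningeal fibroblasts, read 347, 413, 385 and 540.2 in luciferase neurons, against 939.6, 804 and 760.4 in blank neurons, which makes up most of these sums. *Col1a2* was lower and *Pdgfrb* higher, 2 of the 5 measured genes did not pass, and *Cldn5*, *Pecam1* and *Col1a1* were under 50 on every array. Of 3 measured choroid plexus markers *Clic6* was lower (33.3%, beside 8.55% of all genes). The sums were 171 to 203 in luciferase neurons and 213 to 268 in blank neurons, and *Kl*, *Otx2* and *Kcnj13* were under 50. Their part in the values of *Sfrp5* and *Dvl3* was not tested. Of the Cajal-Retzius markers the 2 measured, *Reln* and *Calb2*, were higher (100%, beside 16.9% of all genes). Their sums were 3114 to 3515 in luciferase neurons and 1811 to 2204 in blank neurons, and the defining *Trp73*, *Lhx1* and *Lhx5* were under 50. Of 8 microglial markers 6 were under 50 on every array, *Cx3cr1*, *Aif1*, *P2ry12* and *Tmem119* among them, and the other 2 overlapped between the groups. In the oligodendrocyte lineage 1 of 6 measured markers (*Mbp*) was higher (16.7%, beside 16.9% of all genes). The sums overlapped, with 6161 to 7349 in luciferase neurons and 6457 to 6622 in blank neurons. Of the neuronal markers 1 of 8 (*Slc17a7*) was higher (12.5%, beside 16.9% of all genes).

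**Figure D5:**
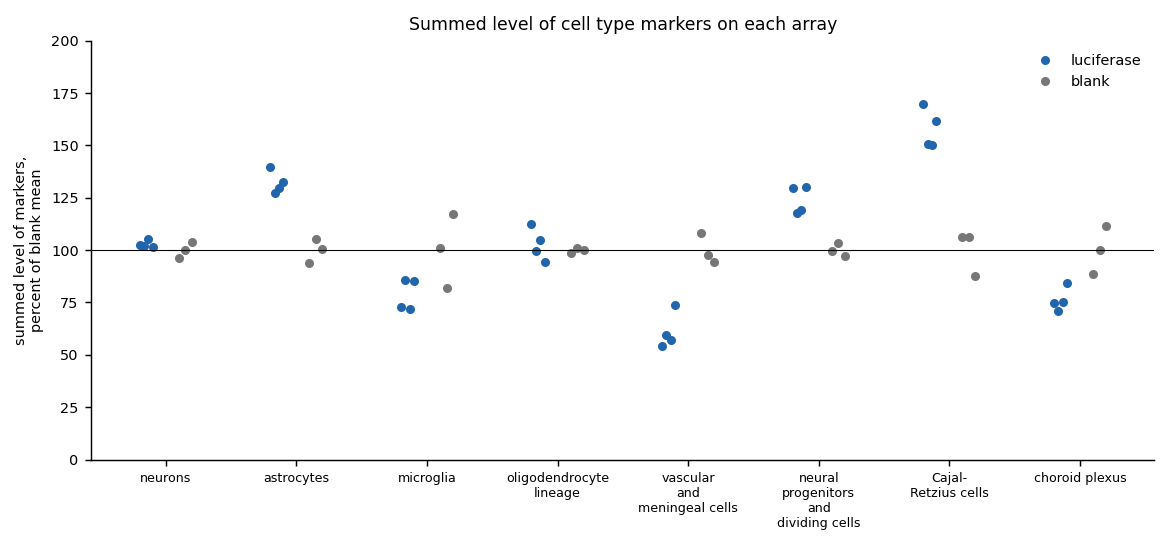
Summed intensity of the measured markers of each cell type on each array, as a percentage of the average blank array. The luciferase arrays lie above the blank arrays for astrocytes, progenitors and Cajal-Retzius markers, below them for vascular and meningeal and choroid plexus markers, and overlap them for neurons, microglia and the oligodendrocyte lineage.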

How the data were processed

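Total RNA was hybridised to Affymetrix Mouse 430_2 arrays. The authors normalized the arrays with RMA (the submitters' processing notes give no version) and deposited intensity values that are not log-transformed, from 4.69 to 23763. The sources used here do not say whether both groups were normalized in 1 run, so that a difference between runs cannot be told apart from a small difference between groups, and for RNA extraction the labels name Trizol and the methods a column kit. The blank columns sit 1 row low and were moved up by 1: over 45037 probe sets the group means then correlated at r = 0.995, and at 0.421 or less with other moves. A label of the blank samples mentions hairpin treatment in general terms, and the treatment field (naive) was used. The table held 0 columns of other samples. Left out were 64 control and 2441 _x probe sets and those under 50 on all arrays. The table held 45101 probe sets. Of the 45037 that are not controls, 34945 name 1 gene, 932 several and 9160 none here, and 34741 were matched to RefSeq. Some genes may not be reported here.

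Log2 intensities of luciferase and blank arrays were compared (luciferase minus blank, no covariates) by lmFit and eBayes of limma 3.58.1, run in R 4.3.3, with Benjamini-Hochberg adjustment over 22748 probe sets. Tables were handled with pandas 2.3.3 in Python 3.11.15. In simulated arrays of the same levels and spread, 50 of 22748 probe sets were raised by each of 0.4, 0.58, 0.8 and 1 on the log2 scale. Of these, 26%, 78%, 98% and 100% passed the adjusted p, and 4.43% of all probe sets past it were false. In the deposited arrays 3688 probe sets passed as higher and 1880 as lower. The adjustment depends on how many probe sets change, so the simulated shares do not give the recovery or false share here. The number of arrays limits the precision, with a median standard error of 0.10 over the 55 probe sets. The study's threshold (adjusted p of 0.05 and 1.5-fold) and the adjusted p alone were both used. Gene lists were described by counts and medians.

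The members and lists were chosen with earlier results of these data known. Values on every array are given for member genes past the adjusted p and for their further probe sets that differ, up to 2 others are named per role, and up to 4 from each list. *Wnt7a*, *Wnt7b*, the fifth extracellular regulator, members named only as small or absent, and the promoters shown (the rule asked for those of called members) were chosen after their values were seen. The alternatives were other filters on level, quantile normalization, centring each array on its median, trend and robust in eBayes, array weights, adding 32 before log2, keeping _x probe sets, the mean over the probe sets of a gene, and leaving out each array in turn.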

Additional observations from a re-analysis of the deposited data

Results flagged for a closer look

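In 4 of the 72 probe sets named or counted above, 1 of the 4 luciferase arrays stood far from the other luciferase arrays. Chance alone does this in about 1 in 20 groups. *Dvl1* 1437301_a_at read 2132.27 on luciferase replicate 2, where the others were between 2027.84 and 2039.13. *Sfrp1* 1428136_at read 368.08 on luciferase replicate 4, where the others were between 456.16 and 459.95. *Lrp4* 1426288_at read 235.13 on luciferase replicate 1, where the others were between 164.03 and 175.57, and without that replicate *Lrp4* no longer passed (adjusted p = 0.06 from limma). *Ctnnbip1* 1431694_a_at read 738.61 on luciferase replicate 3, where the others were between 800.06 and 804.97.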

How the results depend on the processing

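No paired analysis was possible because the luciferase replicates are numbered 1 to 4 and the blank replicates 5 to 7, so the groups share no number. Over 72 probe sets and 17 alternatives, 988 of 1176 values kept their direction and side of the adjusted p, 107 lost the call, 48 gained it and 33 changed sign.

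The 14 higher probe sets became 7 with arrays centred on the median (12.7%, beside 9.1% of all tested probe sets) and 30 with array weights (54.5%, beside 27.6%). On leaving out 1 array they became 8 to 20 (14.5% to 36.4%, beside 8.97% to 21.6%). The 2 lower became 5 with no filter on level (5.32%, beside 5.16% of all), 5 with array weights (9.09%, beside 14.4%) and 3 with arrays centred on the median (5.45%, beside 15.3%). They became 0 with at least 100 on 1 array (beside 7.7%) and 1 with at least 50 on all arrays of a group (2.04%, beside 8.61%). By gene mean 3 were lower (9.38%, beside 10.3%), and on leaving out 1 array 1 to 4 (1.82% to 7.27%, beside 5.11% to 9.62%). The 1 called higher became 2 with no filter on level (*Fzd5* 1455604_at added) and with array weights (*Sfrp2* added), 0 with at least 100 on 1 array, 0 with at least 50 on all arrays of a group, 0 with 32 added, and 1 to 2 on leaving out 1 array (*Lrp6*, *Wnt4* or *Sfrp2* added). The array weights were 3.41 for blank replicate 5 and 0.27 for blank replicate 7. The median of all probe sets was 0.056 as deposited, 0.00078 after quantile normalization and -0.040 after centring.

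Changes of sign were limited to probe sets that did not pass, and their cause was not tested. With quantile normalization *Sfrp4* was -0.040 and *Tcf7l1* 1450117_at -0.0016. With arrays centred, *Axin1* 1426967_at was -0.010, *Sfrp4* -0.092, *Tcf7l1* 1450117_at -0.021, *Tcf7l2* -0.0042 and *Wnt7b* 1420892_at -0.034. With array weights, *Axin1* 1426967_at was -0.094, *Dvl2* 0.085, *Fzd7* 1450044_at 0.0052, *Fzd9* 0.019, *Sfrp4* -0.12 and *Wnt7b* 1420891_at -0.014. By gene mean, *Fzd3* was 0.20, *Tcf7l1* 0.034 and *Wnt7a* -0.016. On leaving out 1 array, *Axin1* 1426967_at ranged from -0.036 to 0.20, *Dvl2* from -0.15 to 0.10, *Fzd7* 1450044_at from -0.13 to 0.034, *Fzd9* from -0.076 to 0.074, *Sfrp4* from -0.052 to 0.091, *Tcf7l1* 1436207_at from -0.15 to 0.083, *Tcf7l2* from -0.031 to 0.27, and *Wnt5a* 1436791_at from -0.034 to 0.26.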
